A study of Mus musculus with 12 samples.

Results

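The Hedgehog ligands, receptors and Gli factors were examined in rhabdoid tumors (RTs) of P0-CreC;Smarcb1flox/flox mice. The family was chosen by name and held 9 genes of the 24060 gene rows: the ligands Shh, Ihh and Dhh, the receptor Ptch1, the signal transducer Smo, the decoy receptor Hhip, and the transcription factors Gli1, Gli2 and Gli3. All 9 were listed in each of the 12 tumors. Both Smarcb1 alleles of these mice are floxed, and the Cre transgene is active in early neural crest cells. RNA was taken from whole tumors, 4 labelled Retro-orbital, 3 Cheek, 3 Meninges, 1 Vestibular N and 1 Trigeminal N. The labels give no treatment, age or sex, and no normal tissue was among the samples, so every comparison is between tumors or between genes of a tumor.

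A Hedgehog ligand binds Ptch1, which in the absence of ligand holds Smo inactive. Active Smo acts at the primary cilium on the Gli proteins, of which Gli2 is the main activator and Gli3 mainly gives a repressor. Gli1, Ptch1 and Hhip are themselves transcribed in response to Gli activity, and are used as readouts of the pathway. Shh patterns the neural tube and keeps cerebellar granule cell precursors dividing, Ihh acts in growing cartilage, and Dhh is the ligand of Schwann cells and the testis.

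The values were RPKM, that is read fragments scaled to the length of the gene and to the depth of the tumor. Levels of different genes were set side by side on this scale, but the gene lengths used are not given. An error in a gene's length would be the same in all 12 tumors, and the p-values of orders between genes do not measure it. Recovered fragment totals ran from 13206168 to 57128422 (median 27929720). Smarcb1, the floxed gene, was at 1.70 to 6.31 RPKM in all 12 tumors. In such bulk RNA, fewer cells of a type and less RNA per cell cannot be told apart. In 3 cases, 2 tumors share the first part of their title (Cheek 1 with Meninges 1, Cheek 2 with Cheek 3, and Retro-orbital 3 with Trigeminal N 1). The sources do not say whether such tumors shared a mouse, and p-values measure the spread between these tumors only. Retro-orbital 3 stood apart from the other Retro-orbital tumors in several family members, and results that rest on it are given with and without it.

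Dhh had the highest value of the 3 ligands in every tumor, and all 3 ligands were low. Its level in Retro-orbital 1 to 4 was 0.452, 0.0431, 0.777 and 0.861 RPKM, in Cheek 1 to 3 it was 0.492, 0.0648 and 0.0960 RPKM, and in Meninges 1 to 3 it was 1.26, 0.466 and 1.12 RPKM. Vestibular N held 0.550 and Trigeminal N 0.858 RPKM. The lowest values were in Retro-orbital 2, Cheek 2 and Cheek 3, Meninges 1 and 3 held the highest, and the 3 locations overlapped. Dhh rested on 3 to 105 fragments per tumor (median 35). Fragment numbers were derived with the shortest length at which all 12 values of a gene came out whole, within 0.02 of a fragment.

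Shh was below 0.3 RPKM in all 12 tumors. Its level was 0, 0.0128, 0.295 and 0.0182 RPKM in Retro-orbital 1 to 4, 0.0265, 0.0345 and 0.0568 RPKM in Cheek 1 to 3, 0.150, 0.271 and 0.169 RPKM in Meninges 1 to 3, 0.0396 RPKM in Vestibular N and 0.0354 RPKM in Trigeminal N. Retro-orbital 3 and the Meninges tumors were the highest, with 8 to 45 fragments each. The other 8 tumors held 0 to 3 fragments, and 3 fragments were worth 0.042 RPKM in Retro-orbital 1, where none was found, so a level below that could not be told from absence there. Ihh was at 0 in 5 tumors (Retro-orbital 1 and 2, Cheek 2, Meninges 2 and Trigeminal N). In the others it ran from 0.0144 RPKM in Vestibular N to 0.208 RPKM in Meninges 1, with 0.186 RPKM in Retro-orbital 3 and 0.101 RPKM in Cheek 1. The summed level of 6 cartilage and bone markers (Col2a1, Acan, Col10a1, Sp7, Bglap and Ibsp) was 74.5, 206 and 42.7 RPKM in Retro-orbital 3, Cheek 1 and Meninges 1, the 3 tumors with the most Ihh, and 1.72 to 15.7 RPKM in the other 9. These markers did not move together: Ibsp, a bone matrix protein, was at 65.0 RPKM in Retro-orbital 3 and 189 RPKM in Cheek 1 but 0.279 RPKM in Meninges 1, where Sp7 (26 RPKM) and Col2a1 (13.3 RPKM) made up most of the sum. Their part in the Ihh level was not tested.

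Within tumors, the order of the ligands was Dhh above Shh and Ihh. On the log2(RPKM + 0.1) scale Dhh exceeded Shh by 1.67 ± 1.05 (SD, n = 12) and Ihh by 1.97 ± 0.954, each in 12 of 12 tumors (exact two-sided sign-flip permutation test, adjusted p = 0.0013 for both over 8 pairs, from a raw p of 0.000488 that is the smallest this test can give). Shh exceeded Ihh in 8 tumors and fell short in 3, a difference of 0.292 ± 0.627 that did not pass (exact permutation test, n = 12, adjusted p = 0.136). The 0.1 added to each value understates such differences where a ligand is near 0. Dhh and Shh rested on 3 and 1 fragments in Retro-orbital 2, 5 and 3 in Cheek 2, and 3 and 2 in Cheek 3. Their order could not be told from counting error in these tumors.

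**Figure D1:**
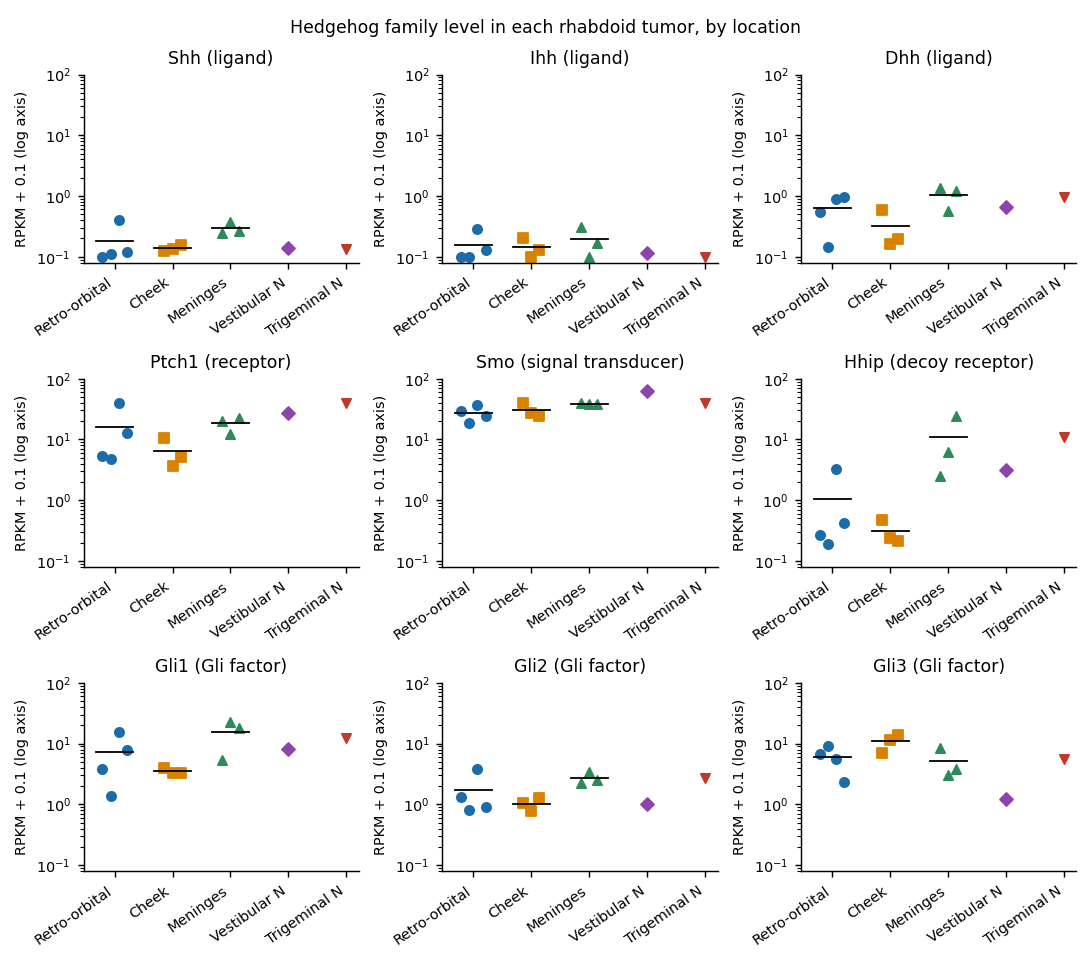
Each panel shows 1 family member, with 1 point per tumor at RPKM + 0.1 on a log axis, grouped by location, and a black bar at the mean of each location with 3 or more tumors. Shh and Ihh lie near the bottom in all 12 tumors, Smo lies between 18.5 and 61.7 RPKM, and Hhip spans 0.0899 to 24.2 RPKM.

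Smo, the transducer that Ptch1 restrains, had the highest median of the family, 37.0 RPKM, and the smallest ratio of highest to lowest value. It was at 28.8, 18.5, 36.3 and 24.7 RPKM in Retro-orbital 1 to 4, 39.8, 26.9 and 24.2 RPKM in Cheek 1 to 3, 40.2, 38.9 and 37.7 RPKM in Meninges 1 to 3, 61.7 RPKM in Vestibular N and 40.2 RPKM in Trigeminal N. Its highest value was 3.34 times its lowest, and in each tumor at least 83.8% of the gene rows had a lower RPKM.

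Ptch1, the receptor and a readout of the pathway, was above 3 RPKM in all 12 tumors and varied more. It was at 5.15, 4.75, 40.4 and 12.7 RPKM in Retro-orbital 1 to 4, 10.3, 3.60 and 4.995 RPKM in Cheek 1 to 3, 20.3, 12.4 and 22.8 RPKM in Meninges 1 to 3, 26.8 RPKM in Vestibular N and 39.1 RPKM in Trigeminal N. The highest value was 11.2 times the lowest, and Retro-orbital 3 and Trigeminal N were highest. The Retro-orbital tumors spanned nearly the whole range, so that this location overlapped both Cheek and Meninges. Ptch1 was below Smo in 11 of 12 tumors, by a mean of 1.40 ± 0.944 on the log2 scale (exact permutation test, n = 12, adjusted p = 0.00195), and exceeded it in Retro-orbital 3.

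Hhip, which binds the ligands at the cell surface and takes them out of signalling, had the widest range of the family. It was at 0.171, 0.0899, 3.21 and 0.329 RPKM in Retro-orbital 1 to 4, 0.369, 0.135 and 0.117 RPKM in Cheek 1 to 3, 2.44, 6.17 and 24.2 RPKM in Meninges 1 to 3, 3.02 RPKM in Vestibular N and 10.9 RPKM in Trigeminal N. The highest was 269 times the lowest, and no tumor lay between 0.369 and 2.44 RPKM. The 6 lower tumors were the 3 Cheek tumors and Retro-orbital 1, 2 and 4, and the 6 higher ones were the 3 Meninges tumors, Retro-orbital 3, Vestibular N and Trigeminal N. Ptch1 exceeded Hhip in 11 of 12 tumors, by 3.28 ± 1.60 on the log2 scale (exact permutation test, n = 12, adjusted p = 0.00156). The exception was Meninges 3, where Hhip reached 24.2 and Ptch1 22.8 RPKM.

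Among the Gli factors, Gli1 exceeded Gli2 in every tumor, and Gli3 stood above Gli1 in 6 tumors and below it in the other 6. Gli1, the factor made in response to the pathway, was at 3.72, 1.28, 15.6 and 7.84 RPKM in Retro-orbital 1 to 4, 3.92, 3.19 and 3.25 RPKM in Cheek 1 to 3, 5.26, 23.0 and 18.1 RPKM in Meninges 1 to 3, 8.15 RPKM in Vestibular N and 12.3 RPKM in Trigeminal N. The Cheek tumors lay close together, and the highest value, in Meninges 2, was 18.0 times the lowest, in Retro-orbital 2.

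Gli2, the main activator, was at 1.21, 0.695, 3.71 and 0.795 RPKM in Retro-orbital 1 to 4, 0.936, 0.672 and 1.15 RPKM in Cheek 1 to 3, 2.15, 3.38 and 2.45 RPKM in Meninges 1 to 3, 0.929 RPKM in Vestibular N and 2.67 RPKM in Trigeminal N. It reached 1 RPKM in 7 of 12 tumors, among them all 3 Meninges tumors. It was lower than Gli1 in 12 of 12 tumors, by 2.08 ± 0.742 on the log2 scale (exact permutation test, adjusted p = 0.0013).

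Gli3, the factor that mainly gives a repressor, had another order of tumors. It was at 6.68, 9.19, 5.51 and 2.23 RPKM in Retro-orbital 1 to 4, 6.91, 11.5 and 14.02 RPKM in Cheek 1 to 3, 8.28, 2.91 and 3.79 RPKM in Meninges 1 to 3, 1.11 RPKM in Vestibular N and 5.57 RPKM in Trigeminal N. Cheek 2 and 3 were highest and Vestibular N lowest. Gli3 exceeded Gli2 in 11 of 12 tumors, by 1.80 ± 1.41 on the log2 scale (exact permutation test, n = 12, adjusted p = 0.00156), with Meninges 2 as the exception. Its mean difference from Gli1 was -0.28 ± 2.0, which did not pass (exact permutation test, n = 12, adjusted p = 0.621).

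**Figure D2:**
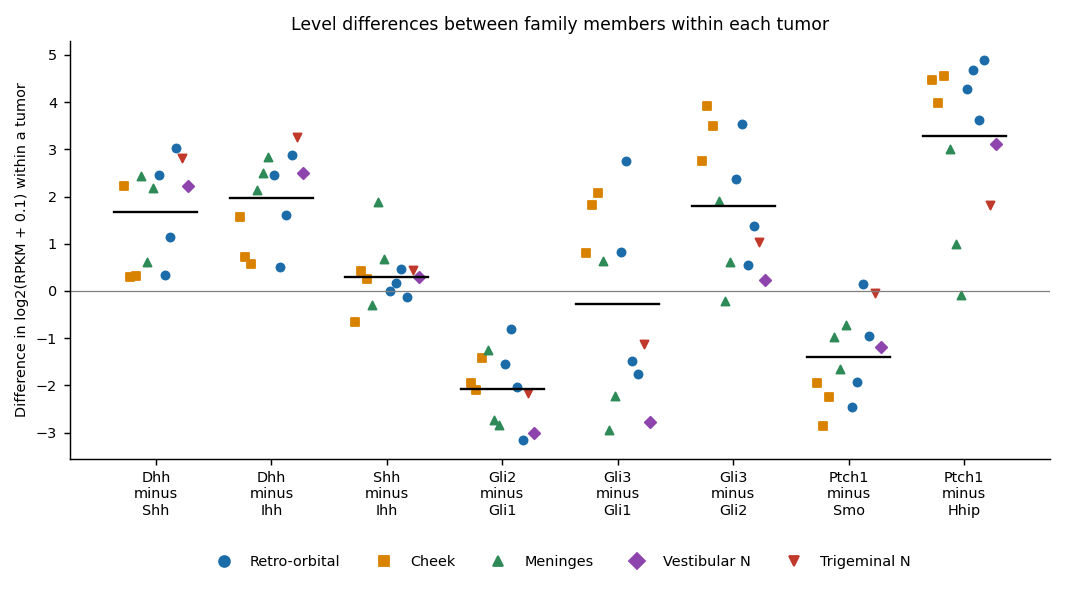
Each point is 1 tumor's difference in log2(RPKM + 0.1) between the 2 named genes, marked by location, and black bars are means over 12 tumors. All 12 points lie above 0 for Dhh minus Shh and Dhh minus Ihh and below 0 for Gli2 minus Gli1, and the points of Gli3 minus Gli1 lie on both sides.

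The levels were then compared between the 3 locations with at least 3 tumors, to ask whether the family differs by the site of the tumor. limma was fitted on log2(RPKM + 1) to the 14745 genes that reached 1 RPKM in 3 or more of these 10 tumors. Ptch1, Smo, Gli1, Gli2, Gli3 and Hhip passed that filter, and the 3 ligands did not. A member that is low in most tumors passes only through tumors where it is high. Hhip was such a member: of these 10 tumors it reached 1 RPKM only in Retro-orbital 3 and the 3 Meninges tumors. Its comparisons with Meninges, and the counts and medians over the 6 members, draw in part on that filter. With no filter its adjusted p over locations was 0.251 by limma. No member passed an adjusted p of 0.05 in the test over the 3 locations, where 0.0407% of all genes did. At an unadjusted p under 0.05, Hhip was the 1 member found and 14.3% of all genes were. Its unadjusted p was 0.00629 and its adjusted p 0.222 by limma. When tumors that share the first part of their title were fitted as a block, an alternative chosen after seeing the data, Hhip passed (adjusted p = 0.0207 by limma), as did 19% of all genes. The correlation within blocks was estimated as 0.93 from 2 pairs of tumors, and whether a title marks an animal is not stated.

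Hhip, which passed the filter through the Meninges tumors and Retro-orbital 3, differed most between Meninges and Cheek. The Meninges tumors had a mean of 10.9 ± 11.6 RPKM (SD, n = 3) and the Cheek tumors 0.207 ± 0.141 RPKM (n = 3), and the groups did not overlap. On the log2(RPKM + 1) scale the difference was 2.83 (SE 0.72, 95% interval 1.20 to 4.45), with an adjusted p of 0.143 by limma. Leaving out each tumor in turn moved it between 2.05 and 3.48. Gli1 was 1.68 higher in Meninges (SE 0.71, 95% interval 0.09 to 3.26), Gli2 0.92 higher and Ptch1 1.48 higher on this scale, with adjusted p of 0.274, 0.281 and 0.314 by limma. Gli3 was lower in Meninges by a difference of -1.03 (95% interval -2.09 to 0.03, adjusted p = 0.305 by limma).

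Between Meninges and Cheek, no member passed the adjusted threshold, as against 0.0475% of all genes. With the shared title as a block, Hhip (1.54), Gli2 (0.733) and Ptch1 (0.98) passed (adjusted p = 0.0103, 0.0294 and 0.0459 by limma) and Gli1 (0.539) did not (adjusted p = 0.256), as against 28.8% of all genes. These differences were smaller than those without the block. Cheek 1 and Meninges 1 were the only tumors to share a title across these locations, so the fit with the block leans on that pair. The deviations of that pair from location means correlated at 0.225, against the 0.93 used in the fit. Without the block, Gli1, Gli2 and Hhip had an unadjusted p under 0.05, which 17% of all genes had. Every Meninges tumor was higher than every Cheek tumor for Ptch1, Hhip, Gli1 and Gli2, 4 of the 6 members tested, and 19.2% of all genes showed this. No member was lower in every Meninges tumor, as against 9.54% of all genes. Among the ligands, which the filter left out, Shh also did not overlap (0.150 to 0.271 against 0.0265 to 0.0568 RPKM), at 8 to 19 against 2 or 3 fragments. The median difference over the 6 members was 1.20, and over all genes 0.16. These members include Hhip, which passed the filter through the Meninges tumors and Retro-orbital 3.

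Between Meninges and Retro-orbital, no member passed the adjusted threshold, which 0.0203% of all genes did. Hhip and Smo had an unadjusted p under 0.05, as did 9.14% of all genes. The Hhip difference was 2.38 on the log2(RPKM + 1) scale (95% interval 0.86 to 3.90, adjusted p = 0.451 by limma), and it was 1.60 to 3.04 with a tumor left out. Hhip in Retro-orbital 3 exceeded its lowest Meninges value, so these groups overlapped. Without Retro-orbital 3, Ptch1 was 1.27, Gli2 0.942 and Hhip 2.84 higher in Meninges on this scale, with adjusted p of 0.385, 0.26 and 0.154 by limma. With it, the Ptch1 difference was 0.67 and the Gli2 difference 0.61. Smo was the 1 member higher in every Meninges tumor, which 6.82% of all genes were, and no member was lower in each of them, which 2.41% were. For Smo the gap was between 36.3 and 37.7 RPKM, and it closed when values were rescaled by trimmed means.

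Between Cheek and Retro-orbital, no member passed the adjusted threshold (0.0271% of all genes did), none had an unadjusted p under 0.05 (12% did) and none had groups that did not overlap (11.1% had). The Ptch1 difference was -0.81 on the log2(RPKM + 1) scale, with a 95% interval of -2.27 to 0.64, and the Gli3 difference was 0.84, with an interval of -0.15 to 1.83. These intervals leave room for differences of more than 1 on the log2 scale in either member. With the shared title as a block, the Gli1 and Hhip differences had the other sign here, as did the Gli3 differences of both comparisons with Meninges, and none of them passed. The members' signs in all 3 comparisons were kept under the other scalings of the table.

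**Figure D3:**
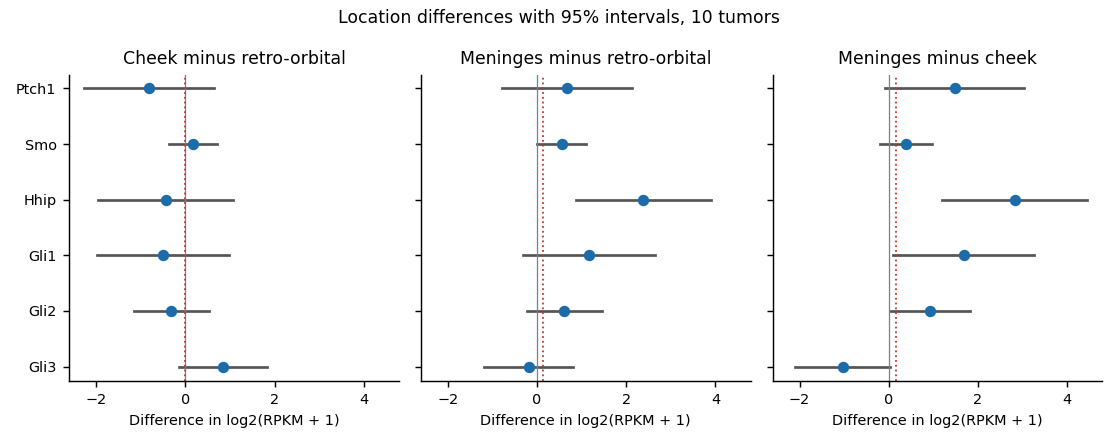
Points are limma differences in log2(RPKM + 1) for the 6 members tested in 10 tumors, lines are 95% intervals, the solid vertical line is 0 and the dotted line is the median over all genes. Hhip has the largest differences, 2.38 and 2.83, in the comparisons with Meninges, and no member passed the adjusted threshold in this fit without a block.

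The readouts were compared across all 12 tumors to ask whether they rise and fall together. Gli1 correlated with Ptch1 (Pearson's r = 0.757, adjusted permutation p = 0.012 over 9 relations; Spearman's rho = 0.797, adjusted permutation p = 0.0088), and r was 0.868 without Retro-orbital 2 and Meninges 2, the tumors farthest from the median of Gli1. Gli1 correlated with Gli2 (r = 0.798, adjusted permutation p = 0.0073; rho = 0.769, adjusted permutation p = 0.0088), and r was 0.719 without those tumors. As deviations from the location means in 10 tumors, r was 0.659 with Ptch1 (adjusted permutation p = 0.059) and 0.709 with Gli2 (adjusted permutation p = 0.053), and neither passed within locations. Hhip correlated with Gli1 (r = 0.865, adjusted permutation p = 0.0051; rho = 0.937, adjusted permutation p = 0.00054) and with Ptch1 (r = 0.838, rho = 0.825, adjusted permutation p = 0.0073 for both). Without the 2 farthest tumors r was 0.879 with Gli1, and 0.853 with Ptch1, for which these were Cheek 2 and Retro-orbital 3. Within locations r was 0.815 and 0.801 (adjusted permutation p = 0.026 for both). The shuffling moved deviations freely between locations and made no allowance for the means taken out. These p-values can therefore be too small, and the pass within locations is not firm. Since no tumor had Hhip between 0.369 and 2.44 RPKM, r over 12 tumors includes that step. Without Retro-orbital 3, r of Gli1 over the other 11 tumors was 0.723 with Ptch1 and 0.774 with Gli2 (adjusted permutation p = 0.029 and 0.016).

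Gli3 was lower where Gli1 was higher, at the edge of the threshold. Pearson's r was -0.590 (adjusted permutation p = 0.049) and Spearman's rho -0.776 (adjusted permutation p = 0.0088), r was -0.533 without Retro-orbital 2 and Meninges 2, and -0.691 within locations (adjusted permutation p = 0.053). With a tumor left out r ran from -0.719 to -0.548, and it passed only without Retro-orbital 3, Retro-orbital 4 or Vestibular N. Of the ligands, Shh (r = 0.709, rho = 0.699, adjusted permutation p = 0.016 and 0.021) and Dhh (r = 0.715, rho = 0.650, adjusted permutation p = 0.016 and 0.033) rose with Gli1. Without the 2 farthest tumors r was 0.597 and 0.707, and within locations 0.690 and 0.524 (adjusted permutation p = 0.053 and 0.14). The Shh relation did not pass without Meninges 2 (r = 0.619), nor the Dhh relation without Retro-orbital 2 (r = 0.584). Most Shh values rested on 3 fragments or fewer. Ihh did not show a relation (r = 0.197, rho = 0.210, adjusted permutation p = 0.53 and 0.51), and it was 0.256 without those tumors and 0.202 within locations. The relation of Smo with Gli1 had r = 0.615 (adjusted permutation p = 0.042) and rho = 0.573 (adjusted permutation p = 0.063), but r was 0.419 without the 2 farthest tumors and 0.60 within locations (adjusted permutation p = 0.083). It did not pass in 7 of the 12 cases with a tumor left out, and was 0.421 without Retro-orbital 2 and 0.622 without Meninges 2.

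**Figure D4:**
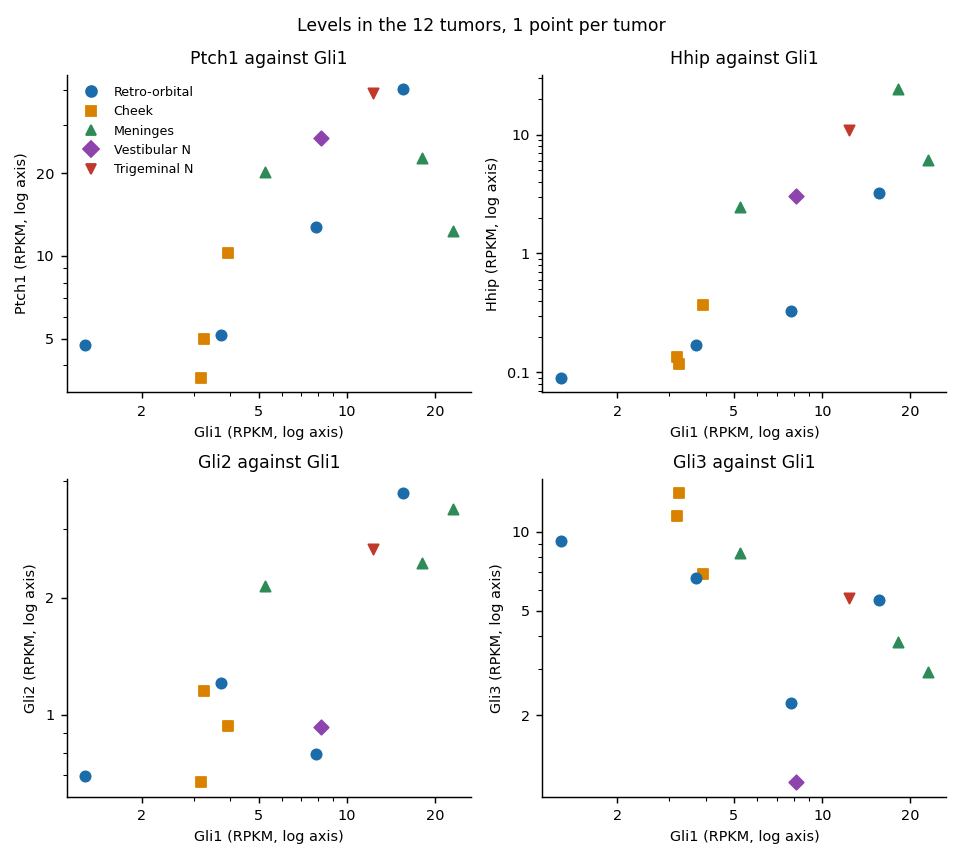
Each point is 1 of 12 tumors, at its Gli1 level on the horizontal and its Ptch1, Hhip, Gli2 or Gli3 level on the vertical log axis, in RPKM. Hhip leaves a gap between 0.369 and 2.44 RPKM, and Gli3 is lowest, at 1.11 RPKM, in Vestibular N.

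Markers of astrocytes and oligodendrocytes moved with the readouts. The summed level of 6 of them (Gfap, Aqp4, Aldh1l1, Mog, Mag and Mobp) was 1.79 to 20.5 RPKM in the 6 tumors with lower Hhip and 46.4 to 367 RPKM in the 6 with higher Hhip. By location it was 1.79 to 261 RPKM in Retro-orbital, 1.84 to 19.6 in Cheek, 93.6 to 367 in Meninges, 46.4 in Vestibular N and 120 in Trigeminal N. Gfap and Aqp4 made up most of it, at 128 and 121 RPKM in Retro-orbital 3. Of the 6 markers, 2 reached 1 RPKM in a Cheek tumor and 6 in a Meninges tumor, and Mobp was at 0 in Cheek 2. Over 12 tumors r of the log2 sum was 0.907 with Ptch1, 0.814 with Gli1, 0.863 with Dhh and 0.787 with Gli2, given as a description. With both genes taken as residuals from a linear fit on this sum, r was 0.0774 for Gli1 with Ptch1, 0.523 with Hhip, 0.440 with Gli2 and -0.421 with Gli3, and no relation passed (adjusted permutation p = 0.32 to 0.89 over 9 relations). This fit was chosen after seeing the data and made on this marker list only. The shuffling made no allowance for the fitted slope. The part of these markers in the relations was not tested. Which cells of the tumor samples gave the readouts was not tested.

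**Figure D5:**
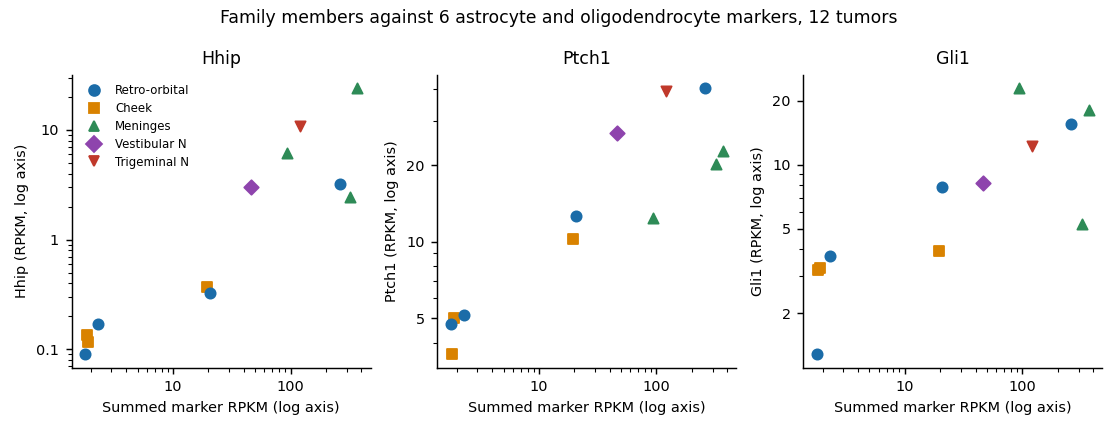
Each point is 1 of 12 tumors, at the summed RPKM of 6 astrocyte and oligodendrocyte markers on the horizontal and its Hhip, Ptch1 or Gli1 RPKM on the vertical axis, both log axes. The 6 tumors with Hhip of 2.44 RPKM or more all have marker sums of 46.4 RPKM or more.

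Of the rhabdoid stains used in the study, Vim ran from 114 to 3000 RPKM, Acta2 from 4.21 to 56.2 RPKM and Fabp7 from 0.0637 to 44.8 RPKM. Fabp7 was at 44.8, 2.59 and 44.4 RPKM in Meninges 1 to 3. Vim was at 3000, 2020, 547 and 754 RPKM in Retro-orbital 1 to 4 and 432, 2060 and 2070 RPKM in Cheek 1 to 3. In Meninges 1 to 3 Vim was at 341, 991 and 658 RPKM. Over 12 tumors r of the log2 sum of the 3 stains was -0.787 with Ptch1, -0.569 with Hhip and -0.451 with Gli1, given as a description. Vim made up most of that sum in every tumor, so these values mostly describe Vim. Fabp7 went the other way, at 2.59 to 44.8 RPKM in the 6 tumors with higher Hhip. In the 6 tumors with lower Hhip it was at 0.0637 to 1.7 RPKM, and Acta2 overlapped between these sets. The part of these stains in the family's levels was not tested.

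The genes most like each readout over 12 tumors, by Pearson's r of log2(RPKM + 0.1) among 15039 genes, are a description with no test. For Gli1 they were Scube3 (r = 0.927), Rdh10 (0.925), Ache (0.917), Itih3 (0.912) and Prickle1 (0.910). Scube3 belongs to a family of secreted proteins whose members help release Hedgehog ligands. It ran from 0.331 to 12.0 RPKM. Among these genes Hhip ranked 24, Gli2 143 and Ptch1 287 in likeness to Gli1. For Ptch1 the most like were Tanc1 (0.950), Casz1 (0.949), Taf3 (0.940), Vps25 (0.940) and 5031434O11Rik (0.939), and Hhip ranked 341 and Gli1 988. For Hhip they were Plscr5 (0.962), Snhg11 (0.957), Ncan (0.953), Nrxn3 (0.951) and Nsg2 (0.945). Ncan, a proteoglycan of the brain matrix, ran from 0.0618 to 135 RPKM, and Nrxn3 and Nsg2 are neuronal genes. The log2 sum of 6 neuron markers (Rbfox3, Syt1, Snap25, Stmn2, Nefl and Tubb3) had r = -0.515 with Hhip, given as a description. Nefl made up most of that sum in Cheek 2 and 3, at 412 and 335 RPKM, where Syt1 was at 0.242 and 0.22 RPKM. In Meninges 1 to 3 Syt1 was at 8.36, 12.9 and 11.9 RPKM. Its highest value of all tumors was in Retro-orbital 4, which had lower Hhip. Rbfox3 was also higher in Meninges 1 to 3 than in Cheek 2 and 3. Stmn2 went the other way, at 16.8 and 17.1 RPKM in Cheek 2 and 3 against 3.99 to 9.47 RPKM in Meninges. Tubb3 and Nefl were likewise lower in Meninges than in Cheek 2 and 3, and Snap25 overlapped. The likeness of genes to Hhip over 12 tumors includes the step between 0.369 and 2.44 RPKM.

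The wider pathway was examined by 4 lists. Of the genes that release ligand (Hhat, Disp1, Scube1, Scube2 and Scube3), Disp1, which exports the lipid-bearing ligand, had a median of 3.84 RPKM (2.77 to 7.87) and Hhat, which attaches palmitate to it, 2.71 RPKM (1.26 to 14.8). Of the co-receptors Boc, Cdon, Gas1 and Lrp2, Gas1 and Boc, which help the ligand bind Ptch1, had medians of 59.2 (17.2 to 205) and 48.9 RPKM (5.04 to 145).

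The 20 cytoplasmic and ciliary regulators all passed the filter, and their sum ran from 391 to 541 RPKM. Csnk1a1, a kinase that phosphorylates Smo and Gli proteins, was the most abundant (median 158, 126 to 198 RPKM), and Arrb2, an arrestin that carries Smo towards the cilium, followed (median 42.7, 22.0 to 78.4 RPKM). Among reported targets, the cyclin genes Ccnd1 (median 77.1, 53.9 to 202 RPKM) and Ccnd2 (median 67.7, 19.6 to 191 RPKM) led.

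No gene of these 4 lists passed the adjusted threshold in the test over locations or in a comparison by limma without a block, with 3 genes of ligand release, 3 co-receptors, 20 regulators and 7 targets tested. Between Meninges and Cheek, 7 of them had an unadjusted p under 0.05, which 17% of all genes had, and they are named here after their values were seen. Scube3 (1.82), Sufu, which holds Gli proteins in the cytoplasm (0.90), Ift172 (1.01), Arrb2 (0.85), Foxf2 (2.65) and Foxm1 (0.86) were higher in Meninges on the log2(RPKM + 1) scale, and Gpr161, a ciliary receptor that restrains the pathway, had a difference of -1.58. Their adjusted p by limma ran from 0.131 for Ift172 to 0.289 for Scube3. Between Meninges and Retro-orbital, Evc, Prkaca, Sufu, Tulp3, Foxf2 and Foxm1 had an unadjusted p under 0.05, as did 9.14% of all genes, and between Cheek and Retro-orbital Ift172 did, as did 12%. The median difference between Meninges and Cheek was 0.86 for the targets tested, 0.559 for ligand release, 0.21 for the regulators and -0.36 for the co-receptors, against 0.16 over all genes. The median of the targets is the value of Foxm1, and the targets went both ways. Foxf1 (-2.23), Bcl2 (-0.33) and Ccnd1 (-0.27) were lower in Meninges, and Foxf2, Sfrp1 (1.005), Ccnd2 (0.89) and Foxm1 higher.

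Promoter sequences were at hand for 7 of the 9 members in RefSeq's GRCm38.p6 annotation (Ihh, Dhh, Ptch1, Smo, Gli2, Gli3 and Hhip, not Shh or Gli1). The 250 bases before the transcription start are printed for the readouts Ptch1 and Hhip and for Gli2, the only member of the 7 with the core of the site that Gli proteins bind. The 9-base site GACCACCCA (TGGGTGGTC on the other strand) was searched on both strands, as was its 7-base core ACCACCC, which lies within it. Capitals mark the core, which in the Gli2 window reads as its reverse complement, and all else is lower case.
Ptch1 promoter, chr13:63565736-63565985, minus strand: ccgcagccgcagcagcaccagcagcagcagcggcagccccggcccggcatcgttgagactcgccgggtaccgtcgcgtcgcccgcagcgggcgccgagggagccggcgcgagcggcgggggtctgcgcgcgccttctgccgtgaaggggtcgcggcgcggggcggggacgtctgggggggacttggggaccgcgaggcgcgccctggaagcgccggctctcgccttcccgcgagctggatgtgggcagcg
Hhip promoter, chr8:80058009-80058258, minus strand: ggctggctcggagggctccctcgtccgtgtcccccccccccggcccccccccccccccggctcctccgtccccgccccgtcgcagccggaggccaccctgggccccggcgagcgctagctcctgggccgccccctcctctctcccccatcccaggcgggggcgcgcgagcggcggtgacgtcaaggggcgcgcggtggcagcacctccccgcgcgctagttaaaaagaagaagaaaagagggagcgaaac
Gli2 promoter, chr1:119053620-119053869, minus strand: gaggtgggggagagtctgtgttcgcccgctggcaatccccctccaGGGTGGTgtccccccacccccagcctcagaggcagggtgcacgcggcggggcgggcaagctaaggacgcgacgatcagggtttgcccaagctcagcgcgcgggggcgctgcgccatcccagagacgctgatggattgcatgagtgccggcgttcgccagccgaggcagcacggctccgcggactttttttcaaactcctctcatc

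None of the 7 windows held the 9-base site, which 0.225% of the 32851 promoters of the table hold. The Gli2 window held the core once, starting 205 bases before the start, and 3.92% of all promoters hold it. These matches describe letters in a short window and say nothing of binding. The Ptch1, Hhip and Gli2 windows had 78.4%, 76.0% and 67.2% G and C bases with 41, 28 and 22 CpG steps, where the median of all promoters was 52.4% and 6. The RefSeq start used for Ptch1 lies within the longest annotated Ptch1 gene (chr13:63508328-63573598, minus strand), and the printed window overlaps no annotated exon. Hhip spans chr8:79965851-80058006 and Gli2 chr1:118834132-119053619, both on the minus strand, and Gli1 spans chr10:127329882-127341974 on the minus strand (GENCODE, GRCm38). Shh lies at chr5:28456815-28467256, minus strand, Ihh at chr1:74945315-74951672, minus strand, Dhh at chr15:98891152-98898540, minus strand, Smo at chr6:29735503-29761365, plus strand, and Gli3 at chr13:15463235-15730026, plus strand.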

How the data were processed

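RNA of 12 tumors was sequenced with stranded libraries after removal of ribosomal RNA. According to the methods and the submitters' processing notes, the authors made base calls with bcl2fastq 2.17, aligned reads to mm10 with STAR, used HTSeq to count fragments on RefSeq genes, and deposited an RPKM value for each gene in each tumor (reads scaled to gene length and to the depth of the tumor). edgeR and limma are also named there. The transcript lengths used are not given in the sources used here.

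Groups came from the location in the labels. limma 3.58.1 (R 4.3.3, trended and robust prior) was fitted to log2(RPKM + 1) over genes reaching 1 RPKM in 3 or more of 10 tumors, with Benjamini-Hochberg adjustment at 0.05. Fold changes on this scale understate changes of low genes. Within-tumor orders (exact sign flips) and correlations (100000 resamples) used log2(RPKM + 0.1), in Python 3.11.15, numpy 2.4.6, scipy 1.17.1 and pandas 2.3.3. Fragment totals were recovered from the steps of low RPKM values with GENCODE M21 lengths. None of the lengths derived for the members equals a GENCODE M21 transcript length, which limits their fragment numbers. The 27 rows with dates as symbols were kept and never named. The closest tumors, Cheek 2 and Cheek 3, differed by a chi-square of 33.6 per degree of freedom over 2082 genes and were kept apart. Fits were tested on simulated data. Some list genes and marker sums are not reported here.

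The members, gene lists and tests were chosen with earlier results of these data known. Named are the 9 members, the 2 most abundant genes of each pathway list, any list gene past the threshold, and the 5 genes most like Gli1, Ptch1 and Hhip. List genes with an unadjusted p under 0.05 and single marker genes were named after their values were seen. Alternatives were the pseudocount, filter, scaling, prior, fitted tumors, a block of shared titles (duplicateCorrelation) and tumors left out.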

Additional observations from a re-analysis of the deposited data

Results flagged for a closer look

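Retro-orbital 3 lay far above the other 3 Retro-orbital tumors in 4 of the 9 family members. Its gap to the next tumor, as a share of the whole range of the 4 tumors, was 0.938 for Shh, 0.923 for Hhip, 0.840 for Ihh and 0.831 for Gli2, above the critical value of Dixon's test of 0.829. For Shh its level was 0.295 RPKM against at most 0.0182 RPKM in the others, for Hhip 3.21 against at most 0.329 RPKM, for Ihh 0.186 against at most 0.0298 RPKM and for Gli2 3.71 against at most 1.21 RPKM. The gap of Ptch1 (0.778) was below the critical value. Chance flags about 1 in 20 such groups where values are normally distributed, and the 9 genes share these tumors. The gaps were taken on RPKM without a log, where a high value stands out more. Chance can therefore flag more often here, and the flags depend on that scale. The astrocyte and oligodendrocyte markers summed to 261 RPKM in Retro-orbital 3 and 1.79 to 20.5 RPKM in the others, and its fragment total of 57128422 was the largest of the 12 tumors. The parts of cell content and depth were not tested.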

How the results depend on the processing

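With the shared title as a block, an alternative chosen after seeing the data with a correlation estimated as 0.93 from 2 pairs of tumors, 2802 genes passed over locations and 2, 3 and 4243 in the comparisons in the order below. Hhip passed over locations (adjusted p = 0.0207 by limma), and Hhip (1.54), Gli2 (0.733) and Ptch1 (0.98) passed between Meninges and Cheek. That comparison leans on Cheek 1 and Meninges 1, the only tumors to share a title across these locations. Signs turned for Gli1 (0.338) and Hhip (0.505) between Cheek and Retro-orbital and for Gli3 against Retro-orbital (0.138) and Cheek (0.0569). Deviations from location means correlated at 0.579 for Cheek 2 with Cheek 3 and 0.225 for Cheek 1 with Meninges 1, which other pairs across locations reached (up to 0.29). No family member passed under any other alternative of the limma fit. The number of genes called over all genes (6 over locations, 4, 3 and 7 for Cheek minus Retro-orbital, Meninges minus Retro-orbital and Meninges minus Cheek) was 10, 2, 7 and 18 with no filter, and 2 for Meninges minus Cheek with a pseudocount of 0.1 and 13 with quantile normalization. With a plain prior it was 19 over locations, 6 for Meninges minus Retro-orbital and 22 for Meninges minus Cheek. With the first tumor only of those sharing a title, an alternative chosen after seeing the data, it was 0 in all 4, of 8 tumors. With each tumor left out it ran from 0 to 198, 0 to 147, 0 to 41 and 0 to 527 in that order, the last of them without Cheek 1, so these totals rest on single tumors. The cause was not tested. Of the member differences, 5 changed sign with a tumor left out, all close to 0 and none called: Gli3 between Meninges and Retro-orbital was 0.035 without Retro-orbital 2 and 0.066 without Meninges 2, and between Cheek and Retro-orbital Gli2 was 0.018 and Hhip 0.011 without Retro-orbital 3, and Smo -0.040 without Cheek 1. The other ends of these ranges were -0.557 for Gli3, -0.474 for Gli2, -0.638 for Hhip and 0.316 for Smo.

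Without Cheek 1, the order of Shh above Ihh passed the threshold, and with a tumor left out the difference ran from 0.147 to 0.379. All other orders kept their call. Correlations of Gli1 with a tumor left out ran from 0.619 to 0.778 for Shh (lost without Meninges 2), 0.584 to 0.803 for Dhh (lost without Retro-orbital 2), 0.421 to 0.713 for Smo (lost in 7 of 12 cases) and -0.719 to -0.548 for Gli3 (lost in 9 of 12). In the 9 tumors with different titles, Smo (0.597) and Gli3 (-0.581) did not pass, nor did they after rescaling by trimmed means (0.481 and -0.596). As deviations from location means, Ptch1 (0.659), Shh (0.690), Dhh (0.524), Smo (0.60), Gli2 (0.709) and Gli3 (-0.691) did not pass, and Hhip with Gli1 (0.815) and with Ptch1 (0.801) did. The shuffling of these deviations made no allowance for the means taken out, so those passes are not firm. As residuals on the astrocyte and oligodendrocyte sum, chosen after seeing the data, values were 0.0774 for Ptch1, 0.523 for Hhip, 0.303 for Shh, 0.0443 for Dhh, 0.133 for Smo, 0.440 for Gli2 and -0.421 for Gli3, 0.121 for Ptch1 with Hhip, and -0.602 for Ihh, whose sign turned from 0.197. Rescaling shifted the median of all genes between Meninges and Cheek from 0.16 to -0.07. No paired analysis was possible because the labels give no replicate numbers shared between locations, other than the fit on shared titles above. The 3 ligands are limited by fragment number.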
